A study of Homo sapiens with 6 samples.

Results

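The 10 genes described here encode the activin and inhibin subunits (INHBE, INHBA, INHBB, INHBC and INHA), the 2 follistatins that bind activins (FST and FSTL3), and 3 hormones that stressed cells secrete (GDF15, FGF21 and STC2). They are 10 of the 60668 genes in the table. INHBE was chosen by its large rise between these same libraries, so its values are a description with no test. The other 9 genes are relatives of INHBE or hormones of stressed cells, and they too were chosen with earlier results of these data known. RNA was sequenced from MiaPaCa-2, an established human pancreatic cancer cell line, with 3 libraries from cells kept for 48 h in low glucose (2.5 mM) and 3 from control cells (25 mM glucose). The design text calls the samples independent biological replicates. The labels name no engineered allele and no other agent in either group. In the labels' treatment field every sample reads 2.5 mM, control samples included, and the titles and the design text were followed here.

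The control libraries held 9741183, 10126218 and 10190154 reads and are called the shallowest, middle and deepest control library. The low-glucose libraries held 10595408 (replicate 2 in the labels), 10841656 (replicate 1) and 13733477 reads and are named in the same way. Values are normalized counts, which are gene counts divided by 1 size factor per library. Of the 10 genes, 9 had a read in some library and 7 had a mean of at least 1 normalized count, the level needed for the test. Markers of the pancreatic ductal epithelium, the labelled origin, were partly present. Their summed level (CPM, reads scaled to the same total in each library) ranged from 5984 to 6968 in control but from 3577 to 3761 in low glucose, carried by the keratins KRT8, KRT18 and KRT19, which fell. CFTR was at 0 reads and EPCAM had 1 read in all. Hepatocyte markers, of interest because INHBE and FGF21 are liver hormones, ranged from 16.8 to 24.7 CPM in control, and low glucose lay within that range, with APOB, TTR and AHSG at 0 reads. Trophoblast markers, of interest for INHA and GDF15, were at 0 CPM in control and at most 0.0922 in low glucose. Granulosa cell markers were at most 1.51 CPM in any library. Endothelial markers ranged from 14.4 to 16.99 CPM in control, nearly all of it CDH5, which fell, and from 0.944 to 1.17 in low glucose. Fibroblast markers, mostly COL1A2, which fell, ranged from 243 to 255 CPM in control against 184 to 187 in low glucose. Of the leukocyte markers, PTPRC and CD3E were at 0 reads, and CD68 had 20 reads in control, 15 of them in the shallowest library, and 12 in low glucose. The part of these shifts in the results below was not tested.

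Activins and inhibins are secreted dimers of the TGF-beta family. A pair of beta subunits forms an activin, and an alpha subunit joined to a beta subunit forms an inhibin, which opposes activin. Activins bind type II and type I receptors and act through SMAD2 and SMAD3, and follistatins trap them outside the cell. GDF15, FGF21 and STC2 are hormones whose genes are known targets of ATF4 and DDIT3 (CHOP), the factors of the integrated stress response, and INHBE is known as a liver gene that responds to the same factors.

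INHBE encodes the beta E subunit. The gene (ENSG00000139269.3) lies on the plus strand of chromosome 12 from 57452323 to 57459280 (hg38). It had 12, 28 and 16 reads in the shallowest, middle and deepest control library and 203, 228 and 234 in the corresponding low-glucose libraries. The normalized counts were 13.5, 31.2 and 17.1 in control and 200.5, 219 and 177 in low glucose. Every low-glucose value stood above every control value, and the highest control value came from the middle library. The mean was 20.6 ± 9.37 (SD, n = 3) in control and 199 ± 21.0 (SD, n = 3) in low glucose, a 9.67-fold difference. On the scale of log2(normalized count + 1) the difference was 3.29, the 16th largest rise among 21101 genes tested. It lay between 3.04 and 3.62 under all 16 alternatives. In bulk RNA, a change in the number of cells that make a transcript and a change in the amount per cell cannot be told apart. A long noncoding gene on the other strand, ENSG00000287200, shares 499 bp of exon with INHBE. Its reads were 13 in control and 107 in low glucose, which is 23.2% and 16.1% of the INHBE reads. The strand setting of the counting is not given in the sources used here, so reads from the shared stretch cannot be told apart.

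**Figure D1:**
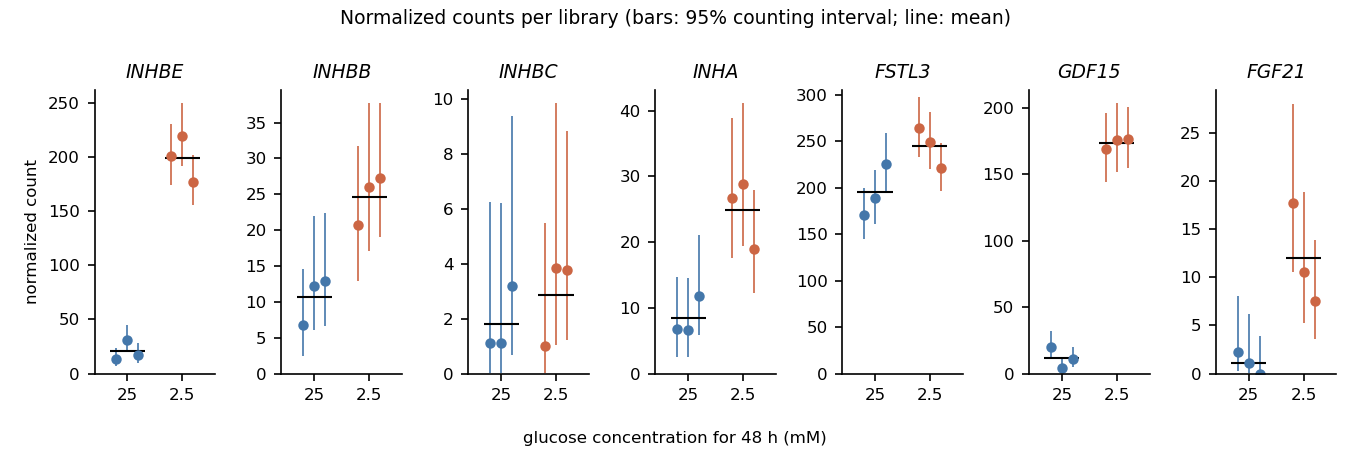
Normalized counts (y axis, a separate scale from 0 for each gene) of the 7 member genes tested, in 3 control libraries (25 mM glucose, blue) and 3 low-glucose libraries (2.5 mM, orange), ordered from shallowest to deepest. Bars are 95% counting intervals of each library and lines are means. INHBE, INHBB, INHA, GDF15 and FGF21 do not overlap between the groups, whereas INHBC and FSTL3 do.

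INHBB encodes the beta B subunit of activin B. The gene (ENSG00000163083.6, chromosome 2 from 120346136 to 120351803, plus strand) had 6, 11 and 12 reads in control and 21, 27 and 36 in low glucose. The groups did not overlap, but the counts were small. Its mean rose from 10.6 ± 3.37 (SD, n = 3) to 24.7 ± 3.46 (SD, n = 3) normalized counts, a log2 difference of 1.18 (SE 0.343, limma adjusted p = 0.0168). The call was lost after quantile normalization (0.92, limma adjusted p = 0.0598), without the shallowest control library (0.91, 0.0567), and without the middle (1.14, 0.0745) or the deepest low-glucose library (1.11, 0.0755). Over all alternatives its adjusted p was 0.0079 to 0.0755.

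INHBC, which encodes the beta C subunit, is the gene next to INHBE and ends 261 bp upstream of it on the same strand. It had 1, 1 and 3 reads in control and 1, 4 and 5 in low glucose, and the groups overlapped. The log2 difference was 0.43 with a 95% interval of -0.90 to 1.76 (limma adjusted p = 0.648), and a change was not detectable at this depth. INHBA, which encodes the beta A subunit of activin A, had 2 reads over the control libraries and 3 over the low-glucose libraries and was not tested.

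INHA encodes the alpha subunit of the inhibins. The gene (ENSG00000123999.5, chromosome 2 from 219569162 to 219575711, plus strand) had 6, 6 and 11 reads in control and 27, 30 and 25 in low glucose. All low-glucose values were higher than all control values. The mean rose from 8.39 ± 2.92 (SD, n = 3) to 24.8 ± 5.21 (SD, n = 3), a log2 difference of 1.48 (SE 0.356, limma adjusted p = 0.00562). INHA passed under every alternative, with adjusted p-values of 0.00184 to 0.0442. Per length, the ratio of INHA to INHBB transcripts ranged from 1.07 to 1.96 in control libraries and from 1.36 to 2.52 under low glucose, with overlap.

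Neither follistatin was called. FSTL3, which binds and neutralizes activins, had 152, 169 and 211 reads in control and 267, 259 and 292 in low glucose. After normalization the deepest control library (225.75) stood above the deepest low-glucose library (221.25). The means were 195 ± 28.2 (SD, n = 3) and 245 ± 21.6 (SD, n = 3), and the log2 difference of 0.33 (95% interval 0.06 to 0.60) did not pass (limma adjusted p = 0.0590). It passed with scaling by library size (0.41, limma adjusted p = 0.0238), with edgeR (0.35, 0.0413) and without the deepest control library (0.44, 0.00841). FST had 1 read in control and 0 in low glucose and was not tested.

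**Figure D2:**
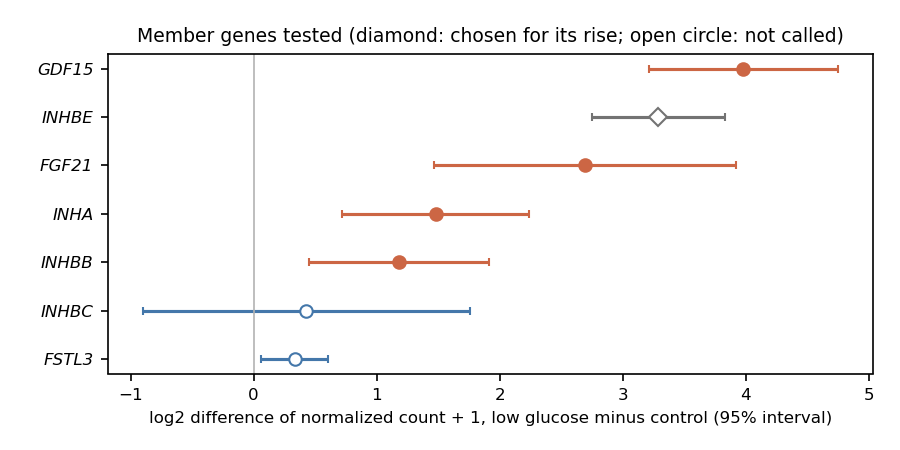
Log2 difference of normalized count + 1, low glucose minus control (x axis), with 95% intervals, for the 7 member genes tested. GDF15, FGF21, INHA and INHBB (filled) were called higher. FSTL3 and INHBC (open circles) were not called, and the diamond marks INHBE, which was chosen for its rise.

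Levels of different genes were compared per length, as TPM (reads per exon length, scaled to the same sum in each library). INHBE made up 62.3% ± 9.24 (SD, n = 3) of the 4 beta-subunit transcripts in control and 88.2% ± 2.59 (SD, n = 3) in low glucose. INHBB made up 31.4% ± 5.52 (SD, n = 3) and 10.5% ± 1.85 (SD, n = 3), although its own level rose. The share of INHBE in control was 52.2% to 70.4%, below the 85.5% to 90.7% of low glucose. The summed beta-subunit level was 3.22 ± 1.13 TPM (SD, n = 3) in control and 21.4 ± 1.97 TPM (SD, n = 3) in low glucose. The summed follistatin level was 19.4 ± 2.55 TPM (SD, n = 3) and 23.3 ± 1.83 TPM (SD, n = 3). The follistatin level per beta-subunit level was 6.47 ± 1.98 (SD, n = 3) in control and 1.09 ± 0.0961 (SD, n = 3) in low glucose. These sums contain INHBE and are given without a test.

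**Figure D3:**
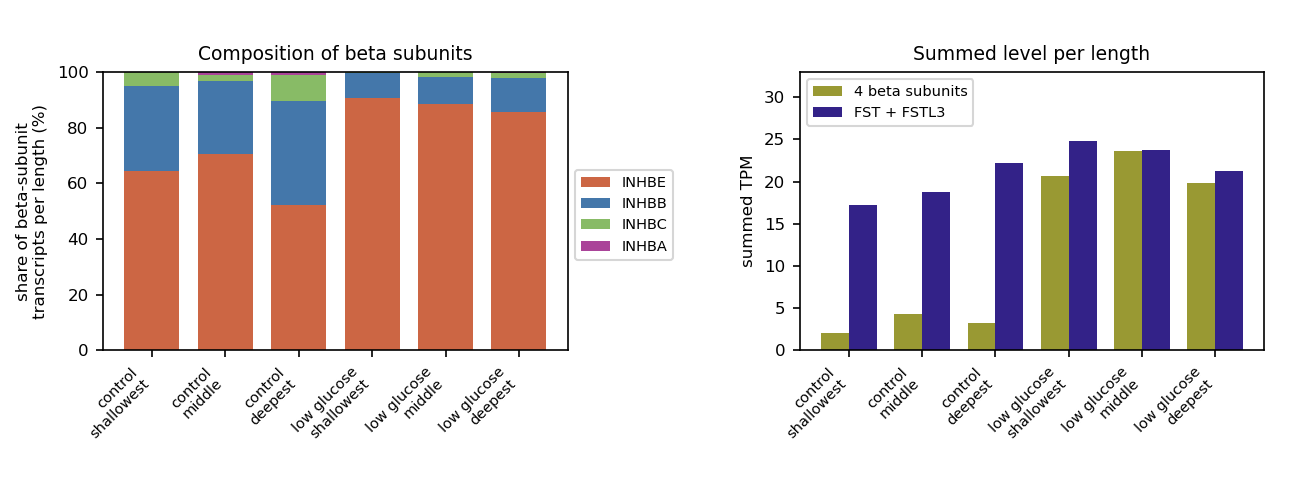
Left, share of each beta subunit among beta-subunit transcripts per length (%) in each library. Right, summed TPM of the 4 beta subunits and of FST + FSTL3 in each library. The INHBE share lies within 52.2% to 70.4% in control libraries, against 85.5% to 90.7% under low glucose, and the subunit sum approaches the follistatin sum in low glucose.

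GDF15 encodes a distant TGF-beta family hormone that reduces appetite through a receptor in the hindbrain. The gene (ENSG00000130513.6, chromosome 19 from 18374731 to 18389176, plus strand) had 18, 4 and 10 reads in control and 171, 183 and 233 in low glucose. The normalized counts were 20.2, 4.46 and 10.7 in control and lay within 169 to 176.5 in low glucose. The low-glucose libraries were close to each other, whereas the control libraries differed several-fold. The mean rose 14.8-fold, from 11.8 ± 7.92 (SD, n = 3) to 174 ± 4.26 (SD, n = 3), a log2 difference of 3.98 (SE 0.360, limma adjusted p = 2.06e-06). This was the 4th largest rise among the 21101 genes tested. The log2 difference ranged from 3.47 without the middle control library to 4.45 without the shallowest.

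FGF21 encodes a hormone of fasting and nutrient stress. The gene (ENSG00000105550.10, chromosome 19 from 48755524 to 48758333, plus strand) had 2, 1 and 0 reads in control and 18, 11 and 10 in low glucose. The groups did not overlap, and the control level rested on 3 reads in all. After scaling by the size factors, the ratio of reads in low glucose to control was 10.5 (95% counting interval 3.34 to 53.1). The log2 difference of 2.696 (SE 0.574) passed with a limma adjusted p of 0.00247, and with 0.000641 to 0.0283 over the alternatives that tested it. STC2, a secreted glycoprotein hormone of the stress response, had 0 reads of 65228096, which allows a level of up to 0.0460 CPM over all libraries. Counting intervals and limits cover counting error only.

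Among the 9 genes other than INHBE, whose choice was not blind to these data, 4 were called higher (GDF15, FGF21, INHA and INHBB) and 0 lower by limma (adjusted p under 0.05). Over all genes tested, 14.7% were called higher and 16.2% lower. At an unadjusted p under 0.05, limma gave 5 higher and 0 lower. DESeq2 called 4 higher and 0 lower, as did edgeR, whose 4 hold FSTL3 in place of FGF21, which its filter removed. All 4 genes called by limma also rose by at least 1 on the log2 scale, and 5.18% of all genes tested met both conditions. The low-glucose values of these 4 genes all stood above the control values, as they did for 22.1% of all genes tested. Of the other 5, FSTL3 and INHBC did not pass, and INHBA, FST and STC2 had too few reads to be tested. The 7 genes reached the test through their mean over all libraries, so genes that were high in 1 condition only could enter.

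In control, the order of TPM levels began with FSTL3 (19.3), followed by INHBE (2.03), GDF15 (1.71), INHA (1.54) and INHBB (0.994). INHBE overlapped with GDF15 and GDF15 with INHA, whereas FSTL3 and INHBE, and INHA and INHBB, did not overlap. In low glucose GDF15 (24.1) and FSTL3 (23.3) overlapped at the top, followed by INHBE (18.9), INHA (4.38), FGF21 (2.55) and INHBB (2.22). INHA overlapped with FGF21, and FGF21 with INHBB. GDF15 stood below FSTL3 in every control library and overlapped with it in low glucose.

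Within the control group, INHBE and GDF15 did not follow each other. The middle library had the highest INHBE value of the control group (31.2) and the lowest GDF15 value (4.46). DDIT3 was 108 there, against 197 and 216 in the other control libraries, and ATF3 was 33.4, against 53.8 and 78.1. ATF4 was 1932 there, against 2624 and 2743, and NUPR1 was 8.92, against 12.3 and 18.2. TRIB3, in contrast, was highest there (765, against 693 and 684), as were XBP1 (980, against 906 and 958) and ATF6 (1011, against 893 and 951). These factors were picked after their values were seen, and INHBE rested on 12 to 28 reads in these libraries. Without this library the log2 difference of INHBE was 3.62, the highest of its alternatives, and that of GDF15 was 3.47, the lowest of its own.

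Promoter sequences were available for 9 of the 10 genes (RefSeq, GRCh38.p14), each spanning 250 bases before to 50 bases after the start. The start is that of the promoter sequence, and it can differ from the first base of the gene coordinates, which are from Gencode v44. The C/EBP-ATF response element, to which ATF4 and DDIT3 dimers are known to bind, was searched as TGATGNAA on both strands. It was in 3.62% of 35116 promoters and in 1 of the 9, that of FGF21, from 54 to 47 bases before the start (chr19:48755459-48755488). The window is shown because it carries this match, in capitals, on the other strand:
FGF21: aaacaccaggaTTGCATCAgggaggaggag
The TATA box, searched as TATAAA, was in 11.5% of promoters and in 3 of the 9. In GDF15 it lay from 29 to 24 bases before the start (chr19:18386117-18386146, capitals), and in FSTL3 at the same distance on the other strand. The AP-1 site, searched as TGANTCA, was in 7.71% of promoters and in 2 of the 9. The match in INHA is in capitals (chr2:219572069-219572098). The windows of GDF15 and INHA lie inside the Gencode coordinates of these genes, downstream of their first base. Those of FGF21 and FSTL3 lie before the first base.
GDF15: aagtccggggacTATAAAggccggtccggc
INHA: gtttgcatgtgTGAGTCAggtcgcttgagg
The cyclic AMP response element (TGACGTCA, 1.85% of promoters), the unfolded protein response element (TGACGTGG, 0.729%) and the E-box (CACGTG, 7.26%) had no match in the 9 windows. The ER stress response elements I and II (0.0769% and 0.0541% of promoters) had none either. These matches describe letters in a short window and show no binding.

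Within 100 kb of INHBE on chromosome 12 there are 15 other genes, of which 12 were tested. Of these, 7 were called higher and 0 lower by limma, against 14.7% higher and 16.2% lower over all genes tested. At an unadjusted p under 0.05 limma also gave 7 higher and 0 lower. EdgeR called 6 higher and 0 lower, and DESeq2 called 7 higher and 0 lower. DDIT3, which encodes CHOP, rose by 2.84 on the log2 scale (limma adjusted p = 1.45e-07). ARHGAP9 had a log2 difference of 2.64 (limma adjusted p = 2.26e-05). GLI1, a transcription factor of hedgehog signalling that starts 505 bp downstream of INHBE on the same strand, had one of 2.08 (limma adjusted p = 0.00166). MARS1, the methionyl-tRNA synthetase, rose by 0.33 (limma adjusted p = 0.00690), and R3HDM2 by 0.66 (limma adjusted p = 0.000929). The remaining calls were the antisense gene ENSG00000287200, which shares 499 bp of exon with INHBE, and MIR616, which lies in an intron of DDIT3 on the same strand. The 7 calls are therefore not all of separate stretches. INHBC, R3HDM2-DT, MBD6, DCTN2 and KIF5A were not called. Several of these genes share exon with a gene on the other strand, among them ARHGAP9 and MARS1 (519 bp) and DDIT3 and MARS1 (355 bp). Whether reads of such stretches were counted for both genes was not tested.

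**Figure D4:**
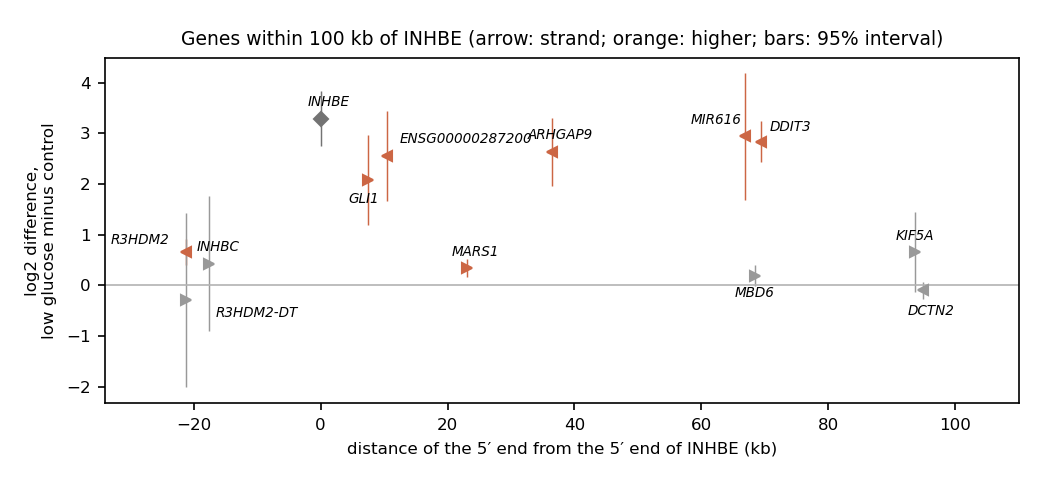
Log2 difference, low glucose minus control (y axis), of the tested genes within 100 kb of INHBE, by the distance of their 5′ end from that of INHBE (x axis, kb). Bars are 95% intervals, arrows give the strand, orange marks genes called higher, grey genes not called and the diamond INHBE. DDIT3, MIR616, ARHGAP9, ENSG00000287200 and GLI1 lie above 2, and MARS1 lies at 0.33.

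Genes were ranked by the Euclidean distance of their library profiles from that of INHBE over the 6 libraries. A profile was log2(normalized count + 1) relative to the control mean. INHBE was chosen for its rise, so this order largely restates which genes rose by a similar amount. The 15234 genes whose mean was 10 or more were compared. The nearest were DNAJC6 (0.860), an auxilin of clathrin uncoating, CATSPERG (0.902), a subunit of a sperm calcium channel, and RPS6KA2 (0.965), a ribosomal S6 kinase. HERPUD1 (0.994), a factor of ER-associated degradation, and FUT1 (1.17), a fucosyltransferase, followed. DNAJC6, CATSPERG and FUT1 had control means of 7.68, 3.29 and 4.03 normalized counts, so they reached the mean of 10 only through low glucose. HERPUD1 was by far the most abundant of the 5 nearest, at 409 ± 44.8 (SD, n = 3) normalized counts in control and 4111 ± 270 (SD, n = 3) in low glucose. FUT1 lies head to head with FGF21 on the opposite strand, with 133 bases between them, an observation made after its values were seen. It had 3, 4 and 4 reads in control and 34, 33 and 44 in low glucose. NUPR1 was 13th in this order, DDIT3 31st, ATF3 36th and GDF15 92nd. INHA (269th), INHBB (445th) and FSTL3 (3723rd), whose log2 differences were smaller than that of INHBE, were farther away.

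Transcription factors known to act on these hormone genes, listed together with TRIB3, a pseudokinase that restrains ATF4, mostly rose. Of these 15 genes, all tested, 10 were called higher and 0 lower by limma, against 14.7% and 16.2% of all genes tested. Their median log2 difference was 1.04, against 0.05 over all genes. The list was chosen with earlier results of these data known. At an unadjusted p under 0.05, 1 was lower, and edgeR and DESeq2 called 0 lower. NUPR1, a small stress-induced nuclear protein, rose from 13.1 ± 4.69 (SD, n = 3) to 139 ± 24.5 (SD, n = 3), a log2 difference of 3.34 (limma adjusted p = 5.37e-07). ATF3 rose by 2.77, TRIB3 by 1.52, CEBPB by 1.45, XBP1 by 1.33 and MLXIPL by 1.31 on the log2 scale. ATF4 rose by 1.04, from 2433 to 4946 normalized counts on average. EGR1 (0.06), known to act on GDF15, was not called (limma adjusted p = 0.697).

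Of 11 other stress-secreted factors, 9 were tested, 4 were called higher and 2 lower. This stands against 14.7% higher and 16.2% lower over all genes tested. ADM2, a peptide of the calcitonin family, had 3 reads in control and 76 in low glucose, a ratio of 20.5 (95% counting interval 6.74 to 101). MANF rose by 1.83 and CRELD2 by 1.55 on the log2 scale, both proteins of the ER stress response, and VEGFA rose by 1.54. STC1, the paralog of the silent STC2, fell by 1.70 on the log2 scale (limma adjusted p = 0.000298), and CDNF, the paralog of MANF, fell by 0.85 (limma adjusted p = 0.00168).

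Of 7 activin and inhibin receptors, 6 were tested. ACVR1, a type I receptor, was the only one called, at a log2 difference of 0.96 (limma adjusted p = 0.000137). Over all genes tested, limma called 30.9% in either direction, 14.7% higher and 16.2% lower. ACVR1B, another type I receptor, was not called (0.12, limma adjusted p = 0.440). The type II receptors ACVR2A (-0.55, limma adjusted p = 0.121) and ACVR2B (0.20, limma adjusted p = 0.562) were not called either. For the hormones, 6 of 8 receptor genes were tested and 0 were called by limma in either direction. At an unadjusted p under 0.05 there was 1 higher and 0 lower, and edgeR and DESeq2 called 0. GFRAL, the GDF15 receptor, and KL had 0 reads, and KLB, the coreceptor of FGF21, had 5 reads in control and 4 in low glucose. RET, the partner of GFRAL, had a log2 difference of 0.52 (limma adjusted p = 0.154).

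Of 7 SMADs and corepressors, SKIL was called higher (0.66) and SMAD3 (-0.40), SMAD6 (-0.93) and SKI (-0.37) lower. Across all genes tested, 14.7% were called higher and 16.2% lower. Of 7 known SMAD2 and SMAD3 target genes, 3 were called lower, namely CCN2 (-0.54), TGFBI (-0.34) and TAGLN (-0.58), and 1 was called higher. PMEPA1, BAMBI and LTBP2 were not called. The SMAD2 and SMAD3 targets had a median log2 difference of -0.26, against 0.05 over all genes tested. Among 4 proprotein convertases, which cleave the ligand precursors, PCSK7 was called lower (-0.31) and FURIN was not called.

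Of 10 other secreted antagonists, 4 were tested, and FSTL1 (-0.84) and NOG (-0.41) were called lower. The shares called over all genes tested were 14.7% higher and 16.2% lower. Of 25 other ligands of the TGF-beta family, 13 were tested and 11 had no read. BMP8A was called higher (1.73), and since its near-identical copy BMP8B had a log2 difference of -0.32 (not called), the split of reads between them is uncertain. GDF5 had 1 read in control and 14 in low glucose and reached the test through its low-glucose libraries. With it the list held 2 calls higher, and with edgeR, DESeq2, a pseudocount of 0.1 or a mean of at least 5 it held 1. TGFB1 was called lower (-0.40, limma adjusted p = 0.00570).

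**Figure D5:**
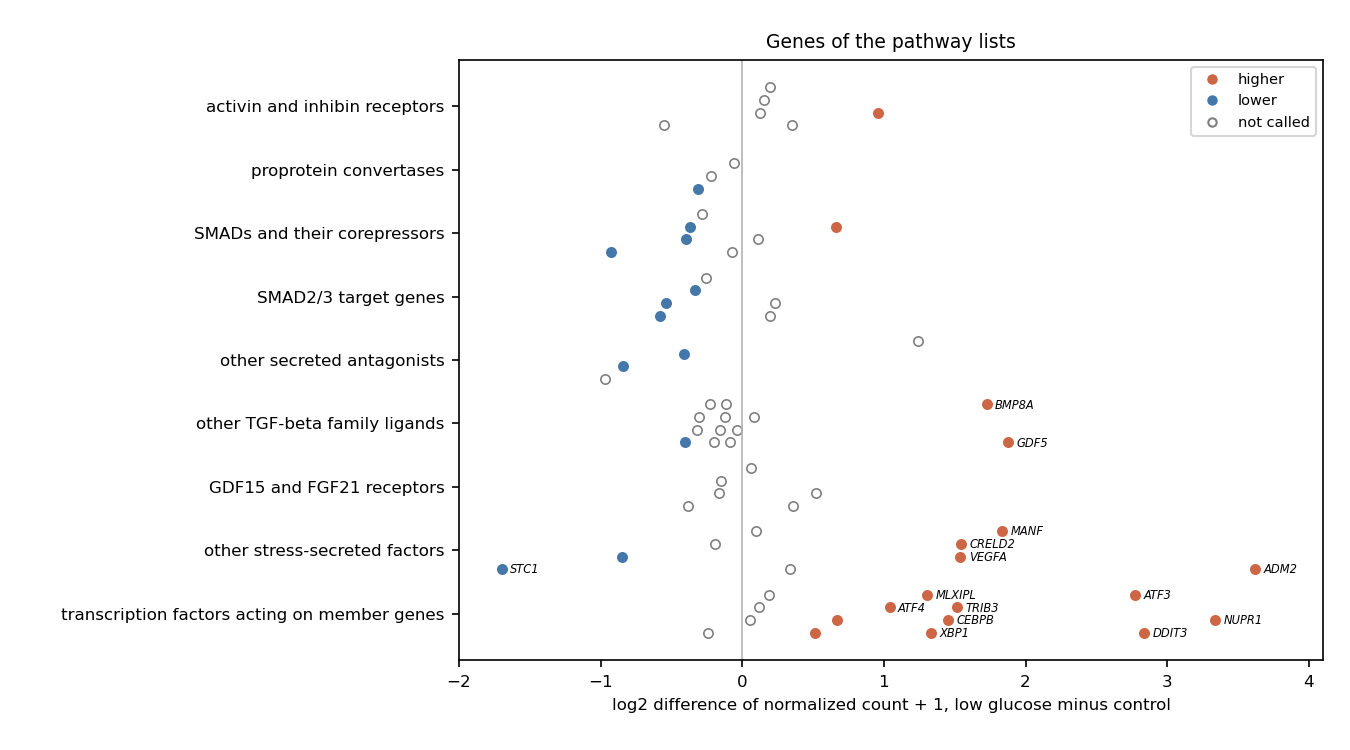
Log2 difference of normalized count + 1, low glucose minus control (x axis), of the tested genes of the pathway lists (rows), without those not reported here. Orange points were called higher, blue lower and open circles not called by limma, and genes with a called difference of at least 1 in size are named. Transcription factors and TRIB3 lie mostly to the right, with NUPR1, DDIT3 and ATF3 the farthest in that row, whereas receptors and SMADs lie on both sides of 0.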

How the data were processed

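RNA-seq of MiaPaCa-2 cells (3 low-glucose and 3 control libraries, strand-specific kit) was analysed from 1 table. Per the methods and the submitters' processing notes, the authors trimmed reads (Trim Galore), mapped them to hg38 with STAR 2.7.0e and used DESeq2. RSEM is in the software list, while the counter, its strand setting and the annotation are not given in the sources used here. In the deposited table each value is a signal, namely a read count that the authors had scaled with 1 size factor per library. In every library 100% of values were whole multiples of 1 read (tolerance 0.02 reads), so reads were recovered, and median-of-ratios factors over 17906 genes matched the scaling. Coordinates and exon lengths are from Gencode v44, which matched 99.39% of identifiers.

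Low glucose replicates 1 and 2 are matched to their columns by the labels. For the remaining 4, the group follows from the runs of column names, and no replicate number is attached. Values were compared as log2(value + 1) wherever the mean reached 1 (21101 genes), with limma 3.58.1 (R 4.3.3, eBayes with trend, two-sided, Benjamini-Hochberg, threshold 0.05). The pseudocount understates changes of low genes, and depth, 9741183 to 13733477 reads per library, limits genes with few reads. With 3 libraries a group, 0.1 is the smallest p of an exact permutation test. A group with 3 reads or fewer was given a read ratio with an exact interval. Alternatives were other scalings, filters, pseudocount and variance model, edgeR 4.0.16, DESeq2 1.42.0, a fold threshold and each library left out. Scripts were tested on simulated data. The genes changed in that simulation all had higher means than INHBB, INHA and FGF21, so it did not cover calls at such low counts. The members and lists were chosen with earlier results of these data known. Members, tested neighbours within 100 kb and the 5 genes nearest to INHBE were named. So were called list genes with an absolute log2 difference of at least 1. Some of the other list genes, called or not, were named too. A few genes of the lists are counted in the totals and not reported by name here.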

Additional observations from a re-analysis of the deposited data

How the results depend on the processing

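The calls of GDF15, FGF21 and INHA and the direction of every member tested were kept under each alternative that tested them. INHBB (1.18) was not called after quantile normalization (0.92) and lay between 0.91 and 1.33 with 1 library left out, where FSTL3 (0.33) lay between 0.24 and 0.44. FSTL3 was called with scaling by library size (0.41) and edgeR (0.35). No paired analysis was possible because replicate numbers are attached to 2 of 6 columns only. The median log2 difference of all genes was 0.05, 0.13 with scaling by library size, 0.06 with TMM and -0.03 with quantile normalization. Over all genes, 3111 were higher and 3417 lower, against 3930 and 2645 with scaling by library size. The 6528 calls became 4090 without variance trend and 1392 with an absolute log2 difference of at least 1. They were 4319 to 7251 with 1 library left out, the lowest without the middle low-glucose library.

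The list counts were small and moved as follows, and the cause was not tested. Receptors called higher (1) were 2 with scaling by library size, TMM, quantile normalization, a mean of at least 5 and edgeR, 0 with the fold threshold and 1 to 3 with 1 library left out. Receptors called lower (0) were 1 with quantile normalization and 0 to 1 with 1 library left out. Convertases called lower (1) were 0 without variance trend and with the fold threshold, and 0 to 2 with 1 library left out. SMADs called higher (1) were 2 with quantile normalization, 0 with the fold threshold and 1 to 2 with 1 library left out. SMADs called lower (3) were 2 with quantile normalization and without variance trend, 0 with the fold threshold and 2 to 3 with 1 library left out. SMAD2 and SMAD3 targets called higher (1) were 3 with scaling by library size and quantile normalization, 2 with TMM, a mean of at least 5 and edgeR, and 1 to 3 with 1 library left out. Those called lower (3) were 1 with scaling by library size and DESeq2, 2 without variance trend, 0 with the fold threshold and 1 to 3 with 1 library left out. Antagonists called lower (2) were 1 without variance trend and 0 with the fold threshold, and those called higher (0) were 0 to 1 with 1 library left out. Other ligands called higher (2) were 1 with quantile normalization, a mean of at least 5, a pseudocount of 0.1, edgeR and DESeq2, and 1 to 2 with 1 library left out. Those called lower (1) were 0 with quantile normalization, without variance trend and with the fold threshold, and 0 to 2 with 1 library left out. GDF15 and FGF21 receptors called higher (0) were 1 with scaling by library size and 0 to 2 with 1 library left out. Stress-secreted factors called lower (2) were 1 with the fold threshold, and transcription factors called lower (0) were 0 to 1 with 1 library left out.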
